A study of Mus musculus with 2 samples.

Results

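Fc receptors and their signaling adaptors were followed in CD45+ cells of the brain: the adaptors *Fcer1g*, *Tyrobp* and *Hcst* and the IgG receptors *Fcgr1*, *Fcgr2b*, *Fcgr3* and *Fcgr4*, 7 of the 27998 gene rows of the files. The members were taken by symbol and had been chosen by their known roles and by measured values of these same libraries, so their levels are a description and no member was tested for the pattern that selected it. Cells were sorted from brains of twi mice (galc-/-) and of WT littermates (galc+/+), both C57Bl/6, untreated and at postnatal day 21. Cells of several animals were pooled by genotype into 1 library each (10x Genomics 3′ v2), so animals cannot be told apart; a UMI is a short tag that lets each captured transcript be counted once. The question was how the adaptors and receptors were spread over the leukocyte classes of the brain, and how their levels within a class differed between the twi and the WT library.

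The Fc receptor γ chain (*Fcer1g*) and DAP12 (*Tyrobp*) are small membrane proteins with an immunoreceptor tyrosine-based activation motif (ITAM). They pair with receptors that cannot signal on their own, and after phosphorylation of the motif they recruit the kinases Syk and Zap70. DAP10 (*Hcst*) has no ITAM; it carries a motif that recruits PI3 kinase and serves the receptor NKG2D (*Klrk1*). Among the IgG receptors, the high-affinity receptor *Fcgr1* and the lower-affinity *Fcgr3* and *Fcgr4* signal through the γ chain, while *Fcgr2b* carries an inhibitory motif in its own tail and needs no adaptor. In the brain, *Tyrobp* is best known as the partner of the microglial receptor *Trem2*.

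The WT library held 1271 and the twi library 1207 cells after barcodes above 15% mitochondrial UMIs were removed, with medians of 2216 and 3149.5 UMIs per deposited barcode, and the libraries shared 0 barcodes. Marker UMIs, none of them from a member, placed 1006 WT cells (79.2%) and 905 twi cells (75.0%) in 8 classes. WT and twi held 68 and 62 NK cells, 98 and 313 CD8 T cells, 54 and 181 T cells with NK receptors, 12 and 78 γδ T cells, 557 and 169 B cells, 163 and 47 neutrophils, 32 and 34 monocytes, and 22 and 21 microglia. In each class, at least 1 of its own markers and 0 markers from lists not used for it were among the 10 leading genes. The γδ T class had 1. The 5 of T cells with NK receptors were all NK receptor genes, a list that also sets the NK class. No *Cd3* gene was among the 10 leading genes of that class. Since the same markers set the classes and cells with flags of 2 lineages were left out, this is no independent check. The class called microglia may take in C1q macrophages, since C1q genes are among its markers. A UMI of *Tmem119* or *P2ry12* was seen in 20 of 22 WT and 14 of 21 twi cells, and whether the others were macrophages was not tested. In the class called γδ T, 16.7% of WT and 48.7% of twi cells carried a UMI of *Cd8a* or *Cd8b1*. An NK receptor UMI was seen in 8.33% and 34.6% of them. The class is thus only what its rule says, and its twi cells may not all be γδ T cells. *Galc* had 4 UMIs in WT and 8 in twi, and since the assay counts transcript ends without reading the mutation, this checks nothing about the genotypes. *Xist* without a Y transcript was seen in 548 twi cells and 0 WT cells, so genotype and the sex of the pooled animals cannot be fully told apart. With 1 library per genotype there was no replicate error and no test. Levels are CPM, the UMIs of a gene as a part of all UMIs of the cells of the class, scaled to the same total for every class; intervals are exact at 95% and cover counting error only, and each ratio compares these 2 libraries, not the conditions.

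The 7 members, all protein coding, lie on 3 chromosomes (GRCm38, GENCODE M21). *Fcgr2b* (chr1:170958617-170976547, minus strand), *Fcgr4* (chr1:171018920-171029761, plus strand), *Fcgr3* (chr1:171051174-171064935, minus strand) and *Fcer1g* (chr1:171229572-171234365, minus strand) share a stretch of chromosome 1. *Tyrobp* (chr7:30413760-30417585, plus strand) and *Hcst* (chr7:30417712-30419854, minus strand) are neighbours on chromosome 7 whose 3′ ends face each other 127 bp apart. *Fcgr1* (chr3:96282909-96293969, minus strand) stands alone. *Fcgr2b*, *Fcgr3* and *Fcgr4* are related in sequence, so reads shared between them may be counted for the wrong one, and that was not tested.

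The γ-chain-coupled receptors *Fcgr1*, *Fcgr3* and *Fcgr4* were the members whose promoters held the core GAGGAA of the binding site of PU.1, the transcription factor of the myeloid lineage, and they are shown for that reason. The sequences are from RefSeq (GRCm38.p6), run from 250 bases before to 50 bases after a RefSeq transcript start on the strand of the gene, and have the core in capitals, read on the opposite strand as TTCCTC.
Fcgr1 (chr3:96293920-96294219, minus strand): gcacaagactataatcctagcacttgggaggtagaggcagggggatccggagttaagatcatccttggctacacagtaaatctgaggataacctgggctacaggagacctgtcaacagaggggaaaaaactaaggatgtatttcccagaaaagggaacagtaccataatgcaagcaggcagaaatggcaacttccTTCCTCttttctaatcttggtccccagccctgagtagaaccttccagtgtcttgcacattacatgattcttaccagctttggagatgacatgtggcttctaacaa
Fcgr3 (chr1:171059354-171059653, minus strand): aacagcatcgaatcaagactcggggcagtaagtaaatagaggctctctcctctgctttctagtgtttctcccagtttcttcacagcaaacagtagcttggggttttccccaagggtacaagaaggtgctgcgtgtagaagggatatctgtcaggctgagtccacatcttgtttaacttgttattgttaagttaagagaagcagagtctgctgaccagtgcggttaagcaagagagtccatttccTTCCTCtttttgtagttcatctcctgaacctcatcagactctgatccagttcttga
Fcgr4 (chr1:171018676-171018975, plus strand): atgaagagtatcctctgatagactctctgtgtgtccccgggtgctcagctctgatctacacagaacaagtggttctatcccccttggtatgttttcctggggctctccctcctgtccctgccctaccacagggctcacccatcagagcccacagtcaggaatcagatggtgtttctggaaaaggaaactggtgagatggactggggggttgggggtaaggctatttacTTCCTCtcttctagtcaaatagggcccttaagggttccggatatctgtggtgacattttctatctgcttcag
For *Fcgr3* that start lies 5532 bp inside the gene span given above, where 2 GENCODE transcripts begin; for *Fcgr4* it lies 6 bp inside and for *Fcgr1* at the end of the span. The core began at position -55 from the transcript start in *Fcgr1*, -6 in *Fcgr3* and -22 in *Fcgr4*. It was in 3 of the 6 members' promoters matched and, on either strand, in 28.3% of all 27025 promoters of the same length. A RUNX core, TGTGGT or its reverse ACCACA, was in the promoters of *Fcgr4* and *Fcer1g* and in 16.9% of all promoters. The *Fcgr2b* and *Hcst* promoters held neither; *Tyrobp* was not among the promoters matched. A match is only a match of letters.

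*Fcer1g* and *Tyrobp*, the ITAM adaptors, were found at high levels in every myeloid class and in NK cells. In WT, *Fcer1g* had 3138 CPM in monocytes, 2714 in NK cells, 2707 in neutrophils, 2044 in microglia and 1134 in T cells with NK receptors, against 31.5 in CD8 T cells, 22.3 in B cells and 0 UMIs in γδ T cells. In twi it had 4426 CPM in monocytes, 3256 in microglia, 2941 in NK cells, 2777 in neutrophils and 635 in T cells with NK receptors, followed by 120 in γδ T cells, 39.8 in CD8 T cells and 20.7 in B cells. Intervals of neighbours overlapped for monocytes, NK cells and neutrophils in WT, and for microglia, NK cells and neutrophils in twi. Those of the 2 lowest classes overlapped in both libraries.

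*Tyrobp* had nearly the same order. In WT it stood at 3703 CPM in monocytes, 3687 in neutrophils and 3611 in NK cells, whose intervals overlapped, and at 1878 in microglia, 1004 in T cells with NK receptors, 90.9 in B cells and 26.3 in CD8 T cells, with 0 UMIs in γδ T cells. In twi it stood at 4537 CPM in monocytes and 4247 in neutrophils, whose intervals overlapped, and at 2976 in microglia and 2822 in NK cells, which also overlapped. T cells with NK receptors had 200.2 CPM in twi, B cells 80.6, γδ T cells 74.4 and CD8 T cells 50.5. The class of T cells with NK receptors thus lay between the NK and CD8 T cells for both adaptors, and was nearer to the B cells for *Tyrobp* in twi.

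**Figure D1:**
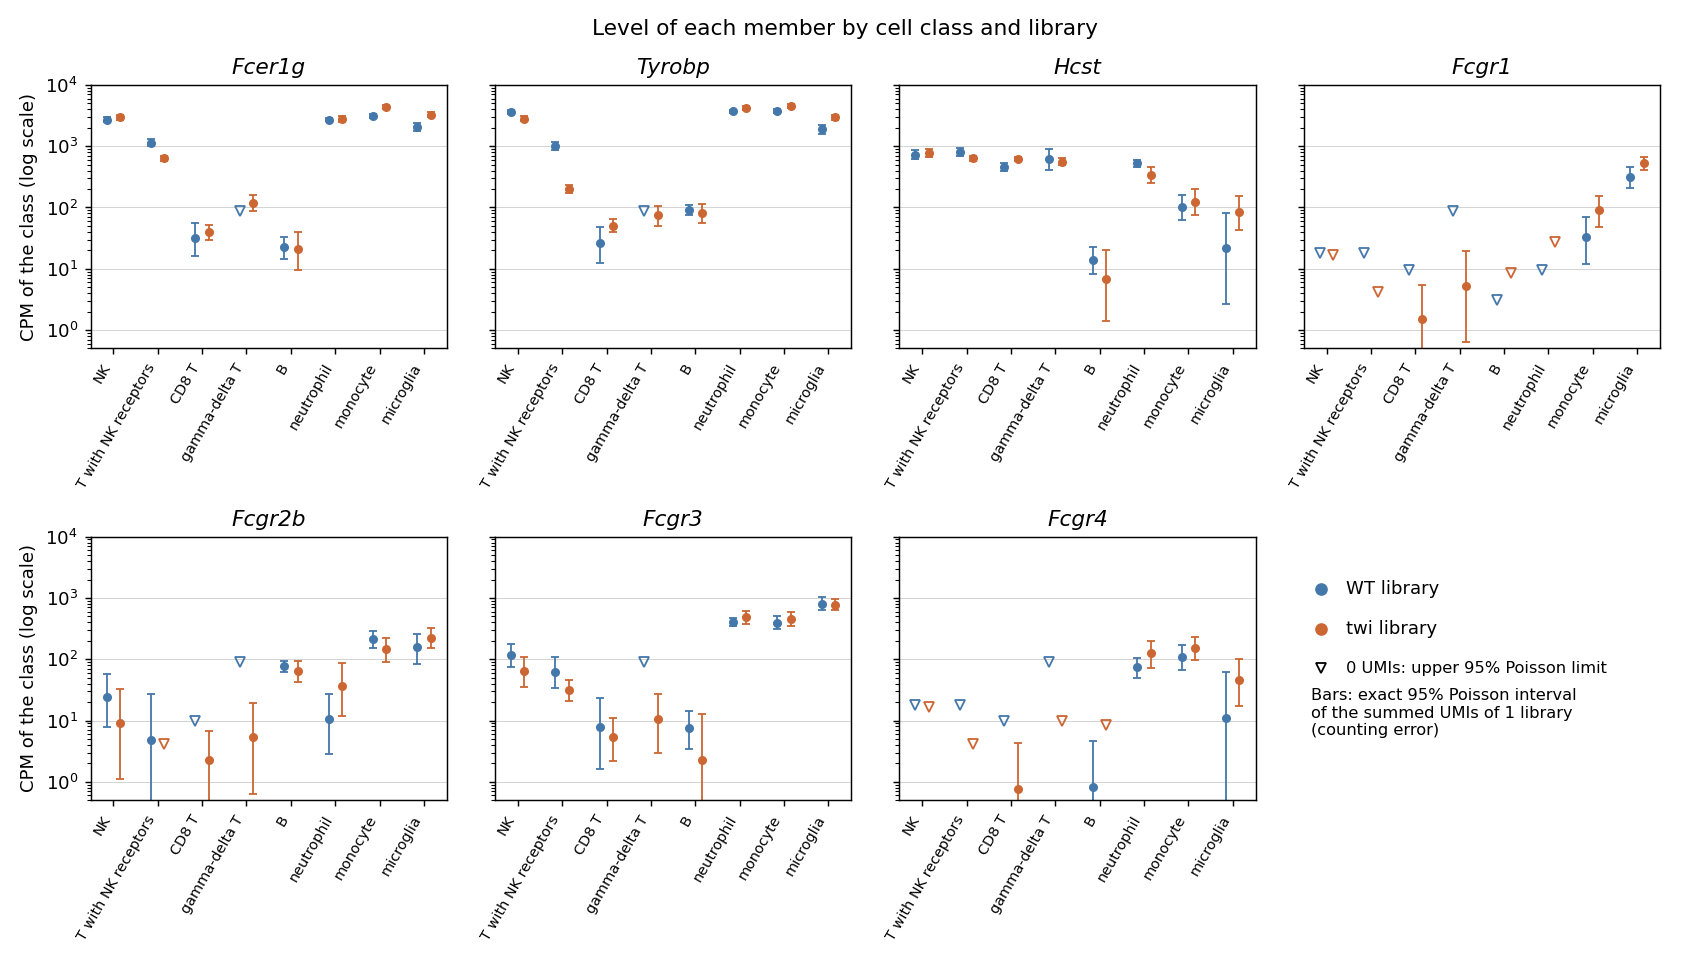
Level of each member in the 8 classes (CPM of the class, log axis), WT in blue and twi in orange, with exact 95% counting intervals as bars; open triangles mark 0 UMIs and stand at the upper limit. *Fcer1g* and *Tyrobp* are high in NK cells and the 3 myeloid classes, *Hcst* in lymphocytes other than B cells and in neutrophils, and the 4 receptors mostly in myeloid classes, with *Fcgr2b* also in B cells.

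Among the 8 classes with UMIs in both libraries, the CPM ratios of both ITAM adaptors were farthest from 1 in T cells with NK receptors. *Tyrobp* had 208 UMIs in 26 of 54 WT cells and 176 UMIs in 57 of 181 twi cells, 1004 against 200.2 CPM and a ratio of twi over WT of 0.199 (95% interval 0.162 to 0.245). *Fcer1g* had 235 UMIs in 39 WT cells and 558 UMIs in 108 twi cells, 1134 against 635 CPM and a ratio of 0.560 (0.480 to 0.655). *Hcst* had 815 and 631 CPM, a ratio of 0.774 (0.650 to 0.925). As UMIs per cell, *Tyrobp* was at 0.252 and *Fcer1g* at 0.708. The *Tyrobp* ratio was 0.309 with looser class thresholds and 0.337 among cells with a Y transcript and no *Xist*, but 1.06 among cells with *Cd3e* and no *Ncr1*, and *Hcst* was at 1.04 with the looser thresholds. With 0.5 UMI added to each sum, 2 of the 4 members with at least 20 UMIs were past 2-fold and lower in twi, *Tyrobp* and, at the limit, *Fcgr3*, whose ratio without the addition was 0.508. Of all 5370 genes with at least 20 UMIs in the class, 10.2% were past 2-fold in either direction. The median log2 ratio was -0.92 for the 4 members and -0.06 for all genes.

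Which cells carried *Tyrobp* in that class differed between the libraries. Cells with at least 3 *Tyrobp* UMIs were 18 of 54 in WT (33.3%, exact interval 21.1 to 47.5%) and 17 of 181 in twi (9.39%, 5.57 to 14.6%); this threshold and the divisions that follow were chosen after the data were seen. Of the 18 WT cells, 17 carried *Ncr1*, the NK receptor NKp46, and 17 carried *Cd3g*, but 1 carried a UMI of *Cd3e*, a chain of the T cell receptor complex. Of the 17 twi cells, 12 carried *Ncr1* and 9 carried *Cd3e*. *Ncr1* and the *Cd3* genes are among the markers that set the class. A cell without *Cd3e* had to carry 2 UMIs of *Cd3d* or *Cd3g* to enter it, so the *Cd3g* count is in large part fixed by the rule. In the cells with fewer *Tyrobp* UMIs, *Cd3e* was seen in 77.8% of WT and 84.1% of twi cells and *Ncr1* in 8.33% and 12.2%. The kinase *Syk* was seen in 8 of the 18 WT cells and 2 of the 17 twi cells with *Tyrobp*, and in 0 of 36 WT and 4 of 164 twi cells with less. *Cd3e* thus did not bear out the name of T cells for most WT cells with *Tyrobp*, and the class is only what its rule says, cells with UMIs of *Cd3* genes and NK receptors.

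Divided by these genes, the class gave different ratios. Cells with *Ncr1* had 2519 CPM of *Tyrobp* in WT (20 cells) and 783 in twi (32 cells), with 2224 and 1772 CPM of *Fcer1g*. Cells with *Cd3e* and without *Ncr1* had 71.4 CPM of *Tyrobp* in WT (27 cells, 8 UMIs) and 75.8 in twi (126 cells, 50 UMIs), with overlapping intervals, while *Fcer1g* had 508 and 385 CPM. In cells with *Cd8a* or *Cd8b1*, *Tyrobp* had 395 CPM in WT (13 cells) and 61.7 in twi (86 cells). The *Fcer1g* level of the cells with *Cd3e* and without *Ncr1* stayed above that of CD8 T and B cells in both libraries, whereas their *Tyrobp* level was near that of B cells.

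**Figure D2:**
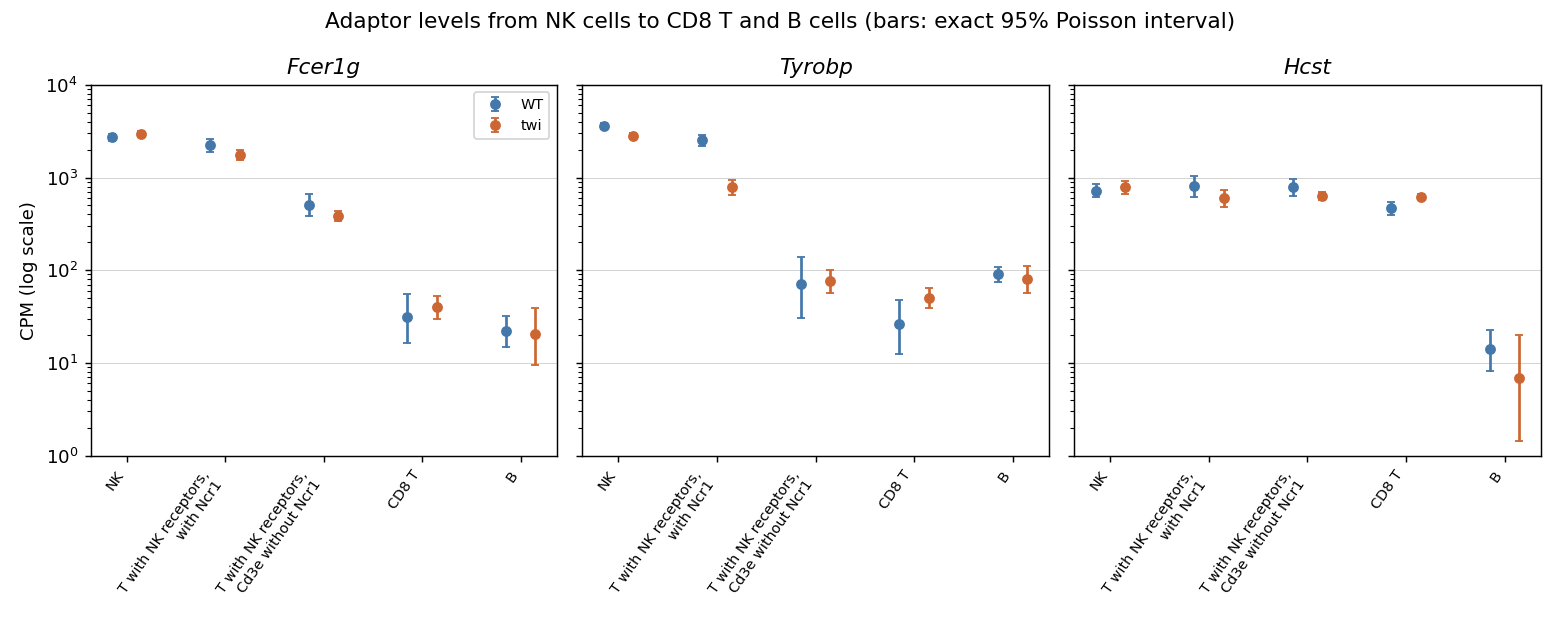
*Fcer1g*, *Tyrobp* and *Hcst* (CPM, log axis) in NK cells, in T cells with NK receptors that carry *Ncr1*, in those with *Cd3e* and no *Ncr1*, in CD8 T cells and in B cells, WT in blue and twi in orange, with exact 95% counting intervals. *Tyrobp* in the cells with *Cd3e* and no *Ncr1* is at 71.4 CPM in WT and 75.8 in twi, whereas *Fcer1g* there is at 508 and 385.

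A set of cells carried *Fcer1g* without *Tyrobp*. Cells with at least 3 *Fcer1g* and 0 *Tyrobp* UMIs were 11 of 54 in WT (20.4%, 10.6 to 33.5%) and 31 of 181 in twi (17.1%, 11.9 to 23.4%) among T cells with NK receptors, against 0 of 68 WT (a floor of 3 cells allows up to 4.41%) and 3 of 62 twi NK cells (4.84%). Both adaptors at 3 or more UMIs were seen in 91.2% of WT and 87.1% of twi NK cells, but in 29.6% of WT and 8.84% of twi T cells with NK receptors. The cells with *Fcer1g* alone carried *Cd3e* in 81.8% of WT and 87.1% of twi cells, *Hcst* in 90.9% and 80.6%, and *Ikzf2*, a transcription factor gene of the Ikaros family, in 72.7% and 67.7%. *Hcst* does not set them apart. It was seen in 92.6% and 90.5% of cells of the class with *Cd3e* and no *Ncr1*, and in 90.0% and 75.0% of those with *Ncr1*. *Cd3e* was likewise frequent in all cells of the class with fewer than 3 *Tyrobp* UMIs. *Ikzf2* was among the 10 leading genes of the whole class, and whether it sets these cells apart was not tested. The shares of T cells with NK receptors that had *Fcer1g* alone overlapped in their intervals between the libraries, and those with both adaptors did not. A UMI of neither adaptor was seen in 18.5% of WT and 33.7% of twi cells.

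**Figure D3:**
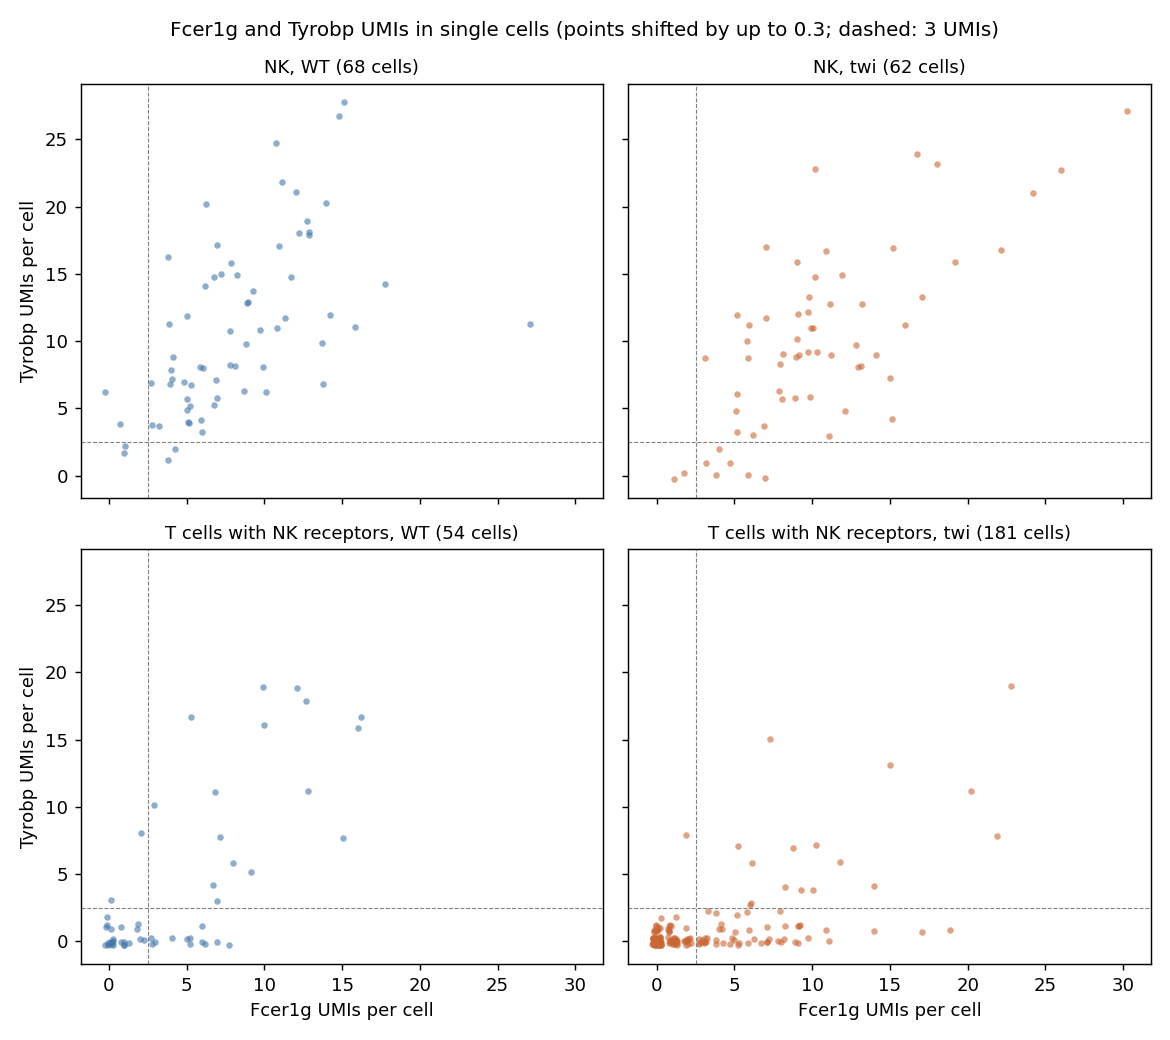
UMIs of *Fcer1g* (horizontal) and *Tyrobp* (vertical) in each NK cell and each T cell with NK receptors of the WT and the twi library, 1 point per cell with a small random shift; dashed lines run just below 3 UMIs. Most NK cells lie beyond both lines, and 11 WT and 31 twi T cells with NK receptors have at least 3 *Fcer1g* and 0 *Tyrobp* UMIs.

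NK cells kept both adaptors at a high level. *Tyrobp* had 737 UMIs in all 68 WT cells and 618 UMIs in 57 of 62 twi cells, 3611 against 2822 CPM and a ratio of 0.782 (0.701 to 0.871). *Fcer1g* had 554 UMIs in 67 WT cells and 644 UMIs in 62 twi cells, a ratio of 1.08 (0.966 to 1.22). The number of *Tyrobp* UMIs per *Fcer1g* UMI was 1.33 in WT and 0.960 in twi NK cells, and 0.885 and 0.315 in T cells with NK receptors. It was nearly the same in both libraries in microglia (0.918 and 0.914) and B cells (4.07 and 3.89). None of the 4 members with at least 20 UMIs in NK cells was past 2-fold, where 6.79% of 2974 genes were; their median log2 ratio was -0.12 beside -0.02.

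Low levels in CD8 T cells were set beside those of B cells, whose only Fcγ receptor, *Fcgr2b*, needs no adaptor, and of CD4 T cells. *Tyrobp* was detected in 17.6% of WT B cells (98 of 557, median 1997 UMIs) and 18.3% of twi B cells (31 of 169, median 2210 UMIs), above the 10.2% and 12.1% of CD8 T cells (medians 3396 and 3648 UMIs) and the 4.17% and 9.86% of CD4 T cells (2 of 48 and 7 of 71). At an equal depth of 1000 UMIs per cell (106 WT and 20 twi cells were shallower and left out), the shares were 8.84% and 5.39% in B cells, 1.04% and 3.26% in CD8 T cells, 2.13% and 4.35% in CD4 T cells, 32.1% and 12.2% in T cells with NK receptors and 98.5% and 87.1% in NK cells. The CD8 T cell share of *Tyrobp* thus lay above that of CD4 T cells unthinned and below it at equal depth, so no order was read from it. For *Fcer1g*, the thinned shares were 1.57% and 2.40% in B cells, 3.13% and 1.63% in CD8 T cells, 52.8% and 38.7% in T cells with NK receptors and 89.6% and 91.9% in NK cells. Unthinned, *Fcer1g* was seen in 4.67% and 5.33% of B cells and 7.14% and 6.71% of CD8 T cells.

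In B cells, *Tyrobp* stood apart from *Fcer1g*: 110 against 27 UMIs in WT and 35 against 9 in twi. Of the B cells with *Fcer1g*, 0 of 26 in WT and 2 of 9 in twi carried *Tyrobp*. *Tyrobp* had 16.3 CPM in the 28 WT B cells with *Vpreb1* or *Igll1*, genes of the surrogate light chain of early B cells, and 99.3 CPM in the 529 others. In twi the values were 65.6 CPM from 4 UMIs and 83.1. None of the 4 members with at least 20 UMIs in B cells was past 2-fold (*Hcst*, with 17 and 3 UMIs and a ratio of 0.492, fell short once 0.5 UMI was added), where 6.09% of 7075 genes were; their median log2 ratio was -0.20 beside -0.01.

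Among the other T cells, the γδ class had 0 UMIs of *Fcer1g* and *Tyrobp* in its 12 WT cells, for which a floor of 3 cells allows up to 25.0% of cells with a UMI, and 45 and 28 UMIs in its 78 twi cells. At a floor of 3 UMIs in WT, *Fcer1g* was at least 1.66-fold and *Tyrobp* at least 1.03-fold higher in twi, but the same twi barcode, with 11027 UMIs where the class median was 4441.5, held 28 of the 45 *Fcer1g* and 18 of the 28 *Tyrobp* UMIs. Without the cell with most UMIs, the floor gave 0.622 for *Fcer1g*, so no direction follows. With 0.5 UMI added, both counted as past 2-fold among 3 members with at least 20 UMIs, where 20.9% of 2876 genes were; the median log2 ratio of the 3 was 2.66 beside -0.13. In CD8 T cells the same twi barcode, with 8916 UMIs, held 24 of 52 *Fcer1g* and 24 of 66 *Tyrobp* UMIs, beside 12 and 10 UMIs in all of WT.

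The ITAM adaptors were higher in twi in monocytes and microglia. *Fcer1g* had 578 WT and 638 twi UMIs in monocytes, a ratio of CPM of 1.41 (1.26 to 1.58), and 184 and 419 in microglia, a ratio of 1.59 (1.34 to 1.90). *Tyrobp* had ratios of 1.23 (1.10 to 1.37) in monocytes and 1.59 (1.32 to 1.91) in microglia. In neutrophils the ratios were 1.03 (0.909 to 1.16) for *Fcer1g* and 1.15 (1.04 to 1.27) for *Tyrobp*. Monocytes had a median of 4764 UMIs in WT and 3375 in twi, and as UMIs per cell the ratios there were 1.04 for *Fcer1g* and 0.903 for *Tyrobp*, so that the direction for *Tyrobp* turned with the scale. In microglia, with medians of 2582.5 and 4259 UMIs, the ratios of UMIs per cell were 2.39 for *Fcer1g* and 2.37 for *Tyrobp*. Among microglia with *Tmem119* or *P2ry12*, *Fcer1g* had 2040 CPM in WT (20 cells) and 3403 in twi (14 cells), and *Tyrobp* 1766 and 3066. By the class rule, a cell with a *Cd3* UMI could not enter the monocyte class. Barcodes that received no lineage flag held 100 WT and 661 twi monocyte-marker UMIs, with 68 and 380 *Fcer1g* UMIs. Whether monocytes were among them, and their part in the monocyte ratios, was not tested.

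Within the myeloid classes the CPM of the adaptors varied with maturity markers, and so did the depth of the cells. Neutrophils with at least 5 UMIs of *Ngp*, *Camp* or *Ltf*, genes of granules made during maturation, had 2939 CPM of *Tyrobp* in WT (98 cells) and 2716 in twi (19 cells). The other neutrophils had 6407 in WT (65 cells) and 7458 in twi (28 cells). In CPM, the step between these stages was thus larger than that between the libraries. The other neutrophils were shallower, with medians of 1156 UMIs in WT and 1526 in twi against 2628 and 4433. They held 526 and 326 *Tyrobp* UMIs against 878 and 249, so that as UMIs per cell the order of the stages turned in both libraries. For *Fcer1g* the levels were 2648 and 2334 CPM against 2923 and 3706, with overlapping intervals of the stages in WT. Monocytes with more than 2 UMIs of *Treml4*, *Ace*, *Adgre4* or *Ear2*, markers of nonclassical monocytes, were set apart. They had 4702 CPM of *Fcer1g* in WT (16 cells) and 5067 in twi (15 cells). The other monocytes had 2422 in WT (16 cells) and 4065 in twi (19 cells). These others were deeper, with medians of 6320 UMIs in WT and 5261 in twi against 2848 and 2485. They held 306 and 375 *Fcer1g* UMIs against 272 and 263, so that as UMIs per cell the order turned in both libraries.

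*Hcst*, which encodes DAP10, was found in NK cells, T cells and neutrophils, and was lowest in B cells. In WT it had 815 CPM in T cells with NK receptors, 725 in NK cells, 623 in γδ T cells, 523 in neutrophils and 465 in CD8 T cells, each interval overlapping the next. Monocytes had 103, microglia 22.2 and B cells 14.0 CPM. In twi it had 786 CPM in NK cells, 631 in T cells with NK receptors, 624 in CD8 T cells and 558 in γδ T cells, again overlapping, then 339.8 in neutrophils, 125 in monocytes, 85.5 in microglia and 6.91 in B cells.

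The level of *Hcst* in CD8 T cells was higher in twi, with 177 UMIs in 71 of 98 WT cells and 815 UMIs in 249 of 313 twi cells, a ratio of CPM of 1.34 (1.14 to 1.59). A UMI was seen in 72.4% of WT and 79.6% of twi CD8 T cells, and at 1000 UMIs per cell in 38.5% and 44.0%, against 2.55% and 0.599% of B cells (3.05% and 1.78% unthinned). In neutrophils it was lower in twi, with 199 and 46 UMIs and a ratio of 0.650 (0.461 to 0.900). NK cells had a ratio of 1.08 (0.865 to 1.36) and γδ T cells of 0.895 (0.594 to 1.40). In CD8 T cells none of the 3 members with at least 20 UMIs was past 2-fold, where 10.8% of 6618 genes were; their median log2 ratio was 0.42 beside 0.10.

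*Fcgr1*, the high-affinity IgG receptor, was found in microglia and, at a lower level, in monocytes. It had 28 UMIs in 15 of 22 WT and 68 UMIs in 16 of 21 twi microglia, 311 against 528 CPM and a ratio of 1.70 (1.08 to 2.74). Without the 5% of cells with most UMIs the ratio was 0.959, and 1 twi cell held 15 of the 68 UMIs. Monocytes had 6 and 13 UMIs, a ratio of 2.77 (0.982 to 8.88). It had 0 UMIs in NK cells, T cells with NK receptors, B cells and neutrophils of both libraries. Barcodes with both neutrophil and phagocyte markers, left unassigned, held 9 WT and 5 twi UMIs of *Fcgr1*. The 0 in neutrophils thus holds only for neutrophils as the class rule sets them. A floor of 3 of the 557 WT B cells allows up to 0.539% of cells with a UMI. The limit is wider in the classes with fewer cells, such as the 68 WT NK cells and the 47 twi neutrophils.

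*Fcgr2b*, the inhibitory receptor, was shared by B cells, monocytes and microglia. It had 76.8 CPM in WT and 64.5 in twi B cells (93 and 28 UMIs), a ratio of 0.839 (0.529 to 1.29). Monocytes had 212 and 146 CPM and microglia 156 and 225 CPM, with ratios of 0.688 (0.385 to 1.20) and 1.45 (0.741 to 2.97). Intervals overlapped between monocytes and microglia in both libraries. The share of B cells with a UMI was 14.4% in WT and 15.4% in twi, against 0 of 48 WT and 1.41% of 71 twi CD4 T cells (medians 3100.5 and 2933 UMIs), which should lack it.

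*Fcgr3*, CD16, was found in every myeloid class and, at a lower level, in NK cells. In WT it had 811 CPM in microglia, then 409.6 in neutrophils and 396 in monocytes, then 118 in NK cells and 62.7 in T cells with NK receptors, the neighbours within these pairs overlapping. In twi it had 777, 480.1, 458, 63.9 and 31.8 CPM in the same order. Its ratios were 0.958 (0.701 to 1.31) in microglia, 1.17 (0.864 to 1.57) in neutrophils and 1.16 (0.815 to 1.63) in monocytes. In NK cells, a UMI was seen in 23 of 68 WT cells (33.8%) and 10 of 62 twi cells (16.1%), 13.4% and 4.84% when thinned, against 1.62% and 0.592% of B cells (0.982% and 0 when thinned). With 24 WT and 14 twi UMIs over all NK cells, an NK cell without a UMI may still express it. The ratios were 0.544 (0.260 to 1.09) in NK cells and 0.508 (0.254 to 1.07) in T cells with NK receptors, and a difference within these intervals was not detectable at this depth.

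*Fcgr4* was found in monocytes and neutrophils. It had 109 CPM in WT and 153 in twi monocytes (20 and 22 UMIs, 10 of the latter in 1 cell) and 73.5 and 126 in neutrophils (28 and 17 UMIs), with ratios of 1.41 (0.732 to 2.71) and 1.71 (0.877 to 3.23). Microglia had 1 and 6 UMIs. Monocytes with the nonclassical markers had 277 CPM in WT and 405 in twi, the other monocytes 31.7 and 10.8, so most of it lay in the nonclassical cells in both libraries. In the same division, *Fcgr3* had 622 and 289 CPM in the cells with the markers and 293 and 553 in the others. That order in CPM turned between the libraries. The UMIs were 36 and 15 against 37 and 51, in cells that differed in depth.

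Across the myeloid classes 0 members were past 2-fold among 5 with at least 20 UMIs in neutrophils, 6 in monocytes and 5 in microglia. Of all genes in these classes, 12.2% of 2063, 12.1% of 2348 and 17.0% of 1796 were. The members' median log2 ratios were 0.20, 0.29 and 0.66, beside 0.04, -0.05 and -0.08. Over all 8 classes, 32 ratios had UMIs in both libraries and at least 20 in all. The interval lay above 1 for 7, below 1 for 5 and included 1 for 20. The same count was not made over all genes, so it does not set the members apart from other genes.

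**Figure D4:**
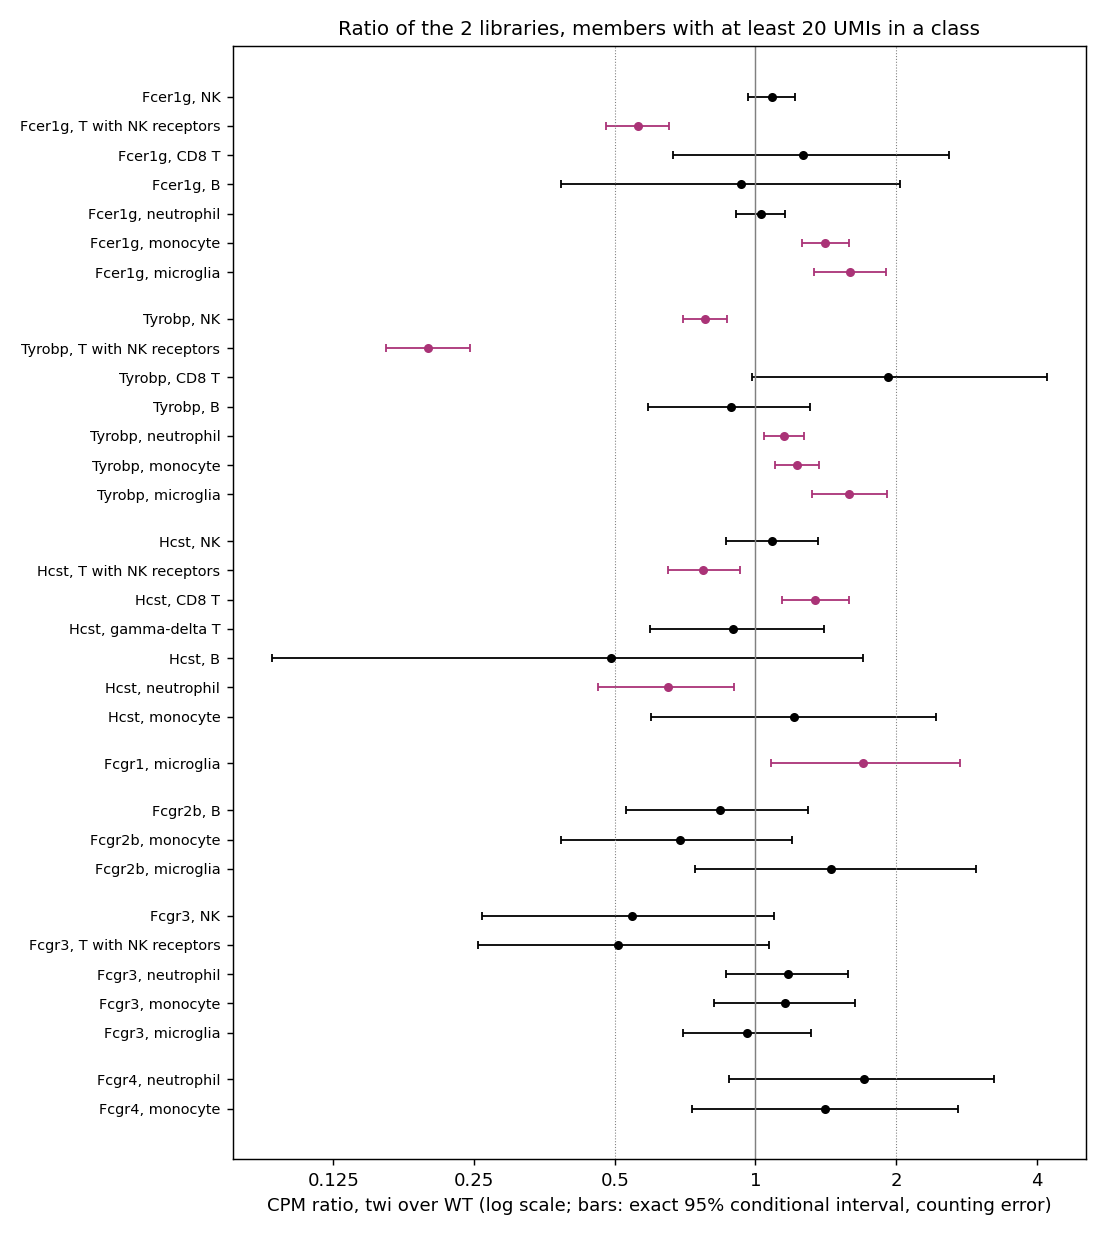
Ratio of CPM, twi over WT (log axis), for each member and class with at least 20 UMIs and UMIs in both libraries, with exact 95% counting intervals; the solid line marks 1 and the dotted lines 0.5 and 2, and ratios whose interval excludes 1 are purple. *Tyrobp* in T cells with NK receptors lies below the lower dotted line, at 0.199, and *Fcgr3* there lies on it, at 0.508.

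The share of *Fcgr3* cells that also carried *Fcer1g* followed the level of *Fcer1g* in the class. It was 100% in NK cells and monocytes of both libraries, and 94.7% in WT and 100% in twi neutrophils. Since *Fcer1g* was seen in 67 of 68 WT and 62 of 62 twi NK cells, such shares could hardly be lower, and *Fcgr2b*, which needs no adaptor, also had 100% in monocytes (16 and 15 cells). In T cells with NK receptors, 9 of 11 WT and 24 of 28 twi cells with *Fcgr3* carried *Fcer1g*, where 39 of all 54 and 108 of all 181 did. In CD8 T cells it was 1 of 3 and 2 of 4 cells, and in B cells 0 of 9 and 0 of 1. Of B cells with *Fcgr2b*, 3.75% in WT and 0% in twi carried *Fcer1g*. No pairing of receptor and adaptor beyond the level of the class was read from these shares.

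The totals over all cells differed between the libraries, and so did the mix of cells. Over all cells, *Tyrobp* had a ratio of CPM of 0.629 (0.602 to 0.656), *Fcer1g* of 0.800 (0.765 to 0.837), *Hcst* of 1.72 (1.60 to 1.85), *Fcgr1* of 1.76 (1.26 to 2.50), *Fcgr2b* of 0.484 (0.380 to 0.614), *Fcgr3* of 0.567 (0.495 to 0.649) and *Fcgr4* of 0.639 (0.451 to 0.903). Neutrophils, 12.8% of WT and 3.89% of twi cells, held 30.6% of *Tyrobp* UMIs in WT and 15.6% in twi. B cells held 50.5% of *Fcgr2b* UMIs in WT and 24.6% in twi. CD8 T cells held 16.8% of *Hcst* UMIs in WT and 35.3% in twi, and neutrophils 18.9% and 1.99%. For *Fcgr3* and *Fcgr4*, the ratio over all cells lay below 1 while the ratios in neutrophils and monocytes lay above 1 with intervals that included it. With at least 20 UMIs, the other ratios of *Fcgr3* lay below 1, at 0.958 in microglia, 0.544 in NK cells, 0.508 in T cells with NK receptors and 0.498 (0.378 to 0.651) in unassigned cells. *Fcgr4* had 0.495 (0.240 to 0.978) in unassigned cells. With B cells left out, the ratios over the remaining cells were 0.474 for *Tyrobp*, 0.598 for *Fcer1g* and 1.30 for *Hcst*. The part of the mix of cells in these ratios was not tested.

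**Figure D5:**
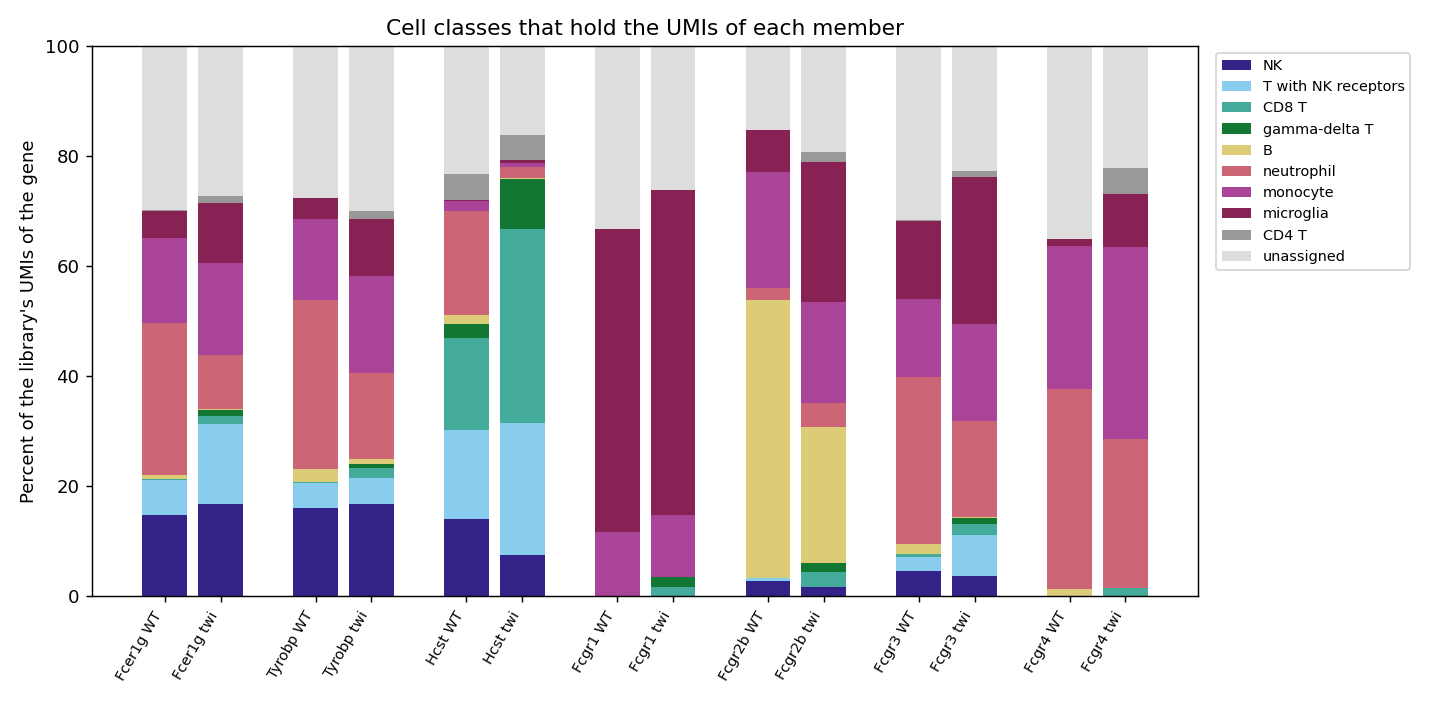
Share of each member's UMIs (percent of the library's UMIs of that gene) held by each class, CD4 T cells and unassigned cells, 1 bar per member and library. The neutrophil share of *Tyrobp* is 30.6% in WT and 15.6% in twi, the B cell share of *Fcgr2b* 50.5% and 24.6%, and the CD8 T cell share of *Hcst* 16.8% and 35.3%.

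The receptors that use these adaptors were described from lists of genes with at least 20 UMIs in a class. In T cells with NK receptors, 2 of 5 genes on the list of *Tyrobp*-coupled receptors were more than 2-fold lower in twi and 0 higher. Their median log2 ratio was -0.81, the value of *Klrk1*, for whose receptor DAP10 is the adaptor named above. Of all 5370 genes, 240 were lower and 310 higher, with a median of -0.06. The 2 lower genes of the list were the activating Ly49 receptor *Klra8* (21 and 12 UMIs, ratio 0.135, 0.0604 to 0.287) and *Klra4* (28 and 45 UMIs, 0.379, 0.231 to 0.630). *Ncr1*, which couples to the γ chain, had 85 and 113 UMIs and a ratio of 0.313 (0.234 to 0.420). These 3 genes are also among the markers that set the class. In NK cells 0 of 5 genes on the list of *Tyrobp*-coupled receptors, *Klrk1* among them, were past 2-fold. Their median was -0.43 beside -0.02 for all genes, and *Ncr1* had a ratio of 1.41 (1.18 to 1.68).

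In CD8 T cells, 2 of 3 genes on the list of *Tyrobp*-coupled receptors were more than 2-fold higher in twi. Of all 6618 genes, 547 were higher and 167 lower. The list holds *Klrk1*, although DAP10 is the adaptor named for its receptor above. *Klrk1*, the receptor NKG2D that signals through DAP10, had 22 and 170 UMIs and a ratio of 2.25 (1.44 to 3.69), beside the ratio of 1.34 for *Hcst*. *Klrc2*, which encodes NKG2C, had 5 and 58 UMIs and a ratio of 3.38 (1.37 to 10.8). Of 11 kinases and signaling genes 0 were past 2-fold. The list of inhibitory receptors and phosphatases also holds *Dok1* and *Dok2*, genes of docking proteins that are neither. Of 6 genes on that list 3 were higher, among them *Lilrb4a* (2 and 32 UMIs, ratio 4.66, 1.19 to 40.2) and *Dok1* (4 and 37 UMIs, ratio 2.70, 0.968 to 10.4), whose interval included 1.

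In microglia, *Siglech* was more than 2-fold lower in twi among 3 *Tyrobp*-coupled receptors, with 77 and 40 UMIs and a ratio of 0.363 (0.242 to 0.539). Of all 1796 genes in the class, 153 were lower and 152 higher. *Trem2*, named here for its role, had 124 and 148 UMIs and a ratio of 0.835 (0.653 to 1.07), while its adaptor *Tyrobp* had 1.59. *Fcrls*, an Fc receptor-like gene of microglia, had a ratio of 0.677 (0.537 to 0.853). Of 7 genes on the list of inhibitory receptors and phosphatases 1 was higher and 3 were lower, with *Lilrb4a* at 2.27 (0.999 to 5.81) and *Cd300a* at 0.368 (0.153 to 0.832). In monocytes 1 of 4 *Tyrobp*-coupled receptors, *Sirpb1a*, was past 2-fold, at 2.04 (0.872 to 5.04), and in neutrophils 0 of 6 were.

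In NK cells, 2 of 13 kinases and signaling genes were past 2-fold, both higher in twi, where 107 of all 2974 genes were higher and 95 lower: *Lyn* at 2.40 (0.955 to 6.79) and *Lcp2*, which encodes the scaffold SLP-76, at 2.22 (1.13 to 4.63). *Ptpn6*, which encodes SHP-1, a phosphatase recruited by inhibitory motifs, had 27 and 70 UMIs and a ratio of 2.42 (1.53 to 3.92). In B cells, whose ITAM chains are *Cd79a* and *Cd79b*, 0 of 14 kinases and signaling genes were past 2-fold. The same held for 0 of 5 genes on the list of inhibitory receptors and phosphatases and 0 of 4 other Fc receptors. The IgE receptor *Fcer2a* had the highest ratio of the latter, 1.88 (1.39 to 2.55), from 111 and 75 UMIs.

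Over the 16 sums of 8 classes and 2 libraries, the genes with the profile most like each member were found by Pearson's r of log2(CPM + 10) among 7124 genes, members and class markers left out. The points share libraries and depth, and r is a description. *Fcer1g* and *Tyrobp* had r = 0.969 with each other and 0.900 and 0.903 with *Fcgr3*, but *Fcer1g* had 0.112 with *Hcst*. *Fcgr1* was most like *Aif1* (0.995), which encodes the microglial protein IBA1, then *Rnase4* (0.980) and *P2ry6* (0.976). *Fcgr4* was most like *Plbd1* (0.991), *Pla2g7* (0.989) and *Pilra* (0.982), and *Fcgr3* most like *Rsu1* (0.970), *Creg1* (0.930) and *Tcn2* (0.928). *Fcgr2b* was most like *Atp6ap1* (0.947), *Zeb2os* (0.931) and *Ctsh* (0.930), and *Hcst* most like *Hsd11b1* (0.950), *Rinl* (0.909) and *Sema4a* (0.894). *Fcer1g* was most like *Apobr* (0.928), *Xdh* (0.912) and *Tm6sf1* (0.901), and *Tyrobp* most like *Xdh* (0.930), *Zbtb7b* (0.922) and *Apobr* (0.906).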

How the data were processed

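Per the labels, CD45+ cells were sorted from dissociated brain and run on the 10x Genomics 3′ v2 assay, 1 library per genotype. The counts the authors deposited are whole UMIs of a gene in a barcode, not normalized; the submitters' processing notes name Cell Ranger 2.1.1 and mm10. Whether counting used strand is not given in the sources used here. The members and all lists were chosen with earlier results of these data known.

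Barcodes with at most 15% mitochondrial UMIs were kept. Cells were placed by UMIs of marker genes: lineage flags were at least 3 *Cd3* or 3 NK receptor UMIs, 4 B cell UMIs, 5% neutrophil UMIs, and 5 microglia or 4 monocyte UMIs. Monocyte UMIs did not flag a cell with at least 1 *Cd3* or 3 NK receptor UMIs. Cells with flags of 2 lineages, or with 3 basophil, mast or dendritic cell UMIs, were left unassigned, as were cells with no class. T cells with NK receptors needed 2 *Cd3* and 2 NK receptor UMIs, and γδ T cells 1 *Cd3* and 2 UMIs of *Cd163l1*, *5830411N06Rik* or *Sox13* (other γδ markers, and *Cd300c2* and *Lilrb4* of the lists, were not used here). No doublet caller was run, so doublets may remain; the 5% of cells with most UMIs were left out as an alternative.

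UMIs were summed by library and class. Intervals at 95% were exact: Poisson for CPM, conditional binomial for a ratio of CPM, Clopper-Pearson for a share of cells (Python 3.11.15, numpy 2.4.6, scipy 1.17.1, pandas 2.3.3). A count of 0 was read against a floor of 3 UMIs or, for a share, 3 cells, in place of that interval. For each list and class, genes with at least 20 UMIs over both libraries were counted past a ratio of 2, with 0.5 UMI added to each sum. Named genes are the members, up to 2 genes each way per list and class that lay farthest from a ratio of 1, and 3 genes per member of most similar profile. The interval of a ratio was checked on simulated Poisson counts of the NK class, which hold only the counting error it assumes. Thinning was checked by the totals of thinned cells. The class rule, shares of cells, list counts and correlations were not checked in this way. Alternatives changed the mitochondrial limit, class thresholds, cell weights, depth, scale, background and sex of the cells; 3 more were chosen after seeing the data: cells with *Cd3e* and no *Ncr1*, cells flagged as neutrophil and phagocyte counted as neutrophils, and the cell with most UMIs of a member left out.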

Additional observations from a re-analysis of the deposited data

Results flagged for a closer look

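The same adaptor lay on opposite sides of 1 in different classes, with intervals of counting error that excluded 1 on both sides. For *Fcer1g* the CPM in twi over that in WT was 1.41 in monocytes and 1.59 in microglia, but 0.560 in T cells with NK receptors. For *Tyrobp* it was 1.15 in neutrophils, 1.23 in monocytes and 1.59 in microglia, but 0.782 in NK cells and 0.199 in T cells with NK receptors. For *Hcst* it was 1.34 in CD8 T cells, but 0.774 in T cells with NK receptors and 0.650 in neutrophils. As UMIs per cell *Tyrobp* in monocytes turned to 0.903, in neutrophils with granule genes it had 2939 CPM in WT and 2716 in twi, and among T cells with NK receptors that carried *Cd3e* and no *Ncr1* the ratio was 1.06. *Fcer1g* was at 0.757 among those T cells, and as UMIs per cell at 1.04 in monocytes and 2.39 in microglia. *Hcst* in T cells with NK receptors turned to 1.04 with looser class thresholds. With 1 library per genotype these differences between classes were not tested. How often other genes lie on both sides of 1 in this way was not counted, so it does not set the adaptors apart.

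CD4 T cells, which were not among the 8 classes, had UMIs of both ITAM adaptors in the twi library, with a ratio of 10.1 (3.24 to 50.7) for *Fcer1g* and 16.4 (4.32 to 139.5) for *Tyrobp*. In WT, 48 cells held 3 and 2 UMIs. In twi, 2 of 71 cells held 38 of the *Fcer1g* and 44 of the *Tyrobp* UMIs together with 57 UMIs of monocyte markers, and the remaining 69 cells held 8 and 6. Whether these 2 barcodes are doublets was not tested.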

How the results depend on the processing

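No paired analysis was possible because each genotype had 1 library only. Values are ratios of CPM, twi over WT. Of 226 values of 22 ratios under alternatives, 191 stayed within the counting interval of the ratio reported, 35 left it and 0 turned a ratio past 2-fold to the other side of 1. Of 197 values of 20 other ratios, 169 stayed, 26 left it and 2 turned. Only ratios past 2-fold could be counted as turned, so these counts do not show that directions were kept. Ratios nearer to 1 crossed it uncounted, for example *Fcer1g* in CD8 T cells (0.313 to 3.63 over the alternatives). So did *Fcgr1* in microglia (0.959 to 2.54) and *Fcgr3* in monocytes (0.762 to 2.93). *Tyrobp* in T cells with NK receptors turned from 0.199 to 1.06 among cells with *Cd3e* and no *Ncr1* (8 and 50 UMIs), where fewer cells remain, and lay between 0.131 (B cell level subtracted) and 0.337 under the others. *Hcst* in microglia turned to 0.933 with the mean of per-cell CPM; it rests on 2 and 11 UMIs.

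As UMIs per cell, *Fcer1g* was at 1.27 in NK cells, 0.708 in T cells with NK receptors, 1.26 in neutrophils and 1.04 in monocytes, *Tyrobp* at 0.920 in NK cells and 2.37 in microglia, and *Fcgr3* at 1.44 in microglia. Thinned to 1000 UMIs, *Fcer1g* was at 0.313 in CD8 T cells, at least 0.303 in γδ T cells and 1.20 in neutrophils, *Tyrobp* at 4.69 in CD8 T cells, *Hcst* at 0.831 in NK cells, *Fcgr2b* at 3.50 in microglia, and *Fcgr3* at 0.762 in monocytes and 0.609 in microglia. Some of these rest on counts near the floor. After thinning, 1 WT CD8 T cell carried *Tyrobp*, 3 carried *Fcer1g*, and 2 WT microglia carried *Fcgr2b*. Without the 5% of cells with most UMIs, *Fcer1g* was at 0.604 in CD8 T cells, at least 0.533 in γδ T cells and 1.21 in monocytes, *Fcgr1* at 0.959 and *Fcgr3* at 0.635 in microglia. In cells that carried a Y transcript but no *Xist*, *Fcer1g* was at 3.63 in CD8 T cells, 0.719 in T cells with NK receptors and 1.39 in neutrophils, *Tyrobp* at 4.33 in CD8 T cells, *Hcst* at 0.792 in NK cells, *Fcgr2b* at 0.242 in microglia, *Fcgr3* at 1.94 in neutrophils and 2.93 in monocytes, and *Fcgr4* at 4.98 in neutrophils. With the mean of per-cell CPM, *Fcer1g* was at 1.20 in neutrophils and 1.10 in monocytes; under stricter thresholds it was at least 0.985 in γδ T cells; under looser ones *Tyrobp* was at 1.27 in microglia. Chosen after seeing the data, cells with *Cd3e* and no *Ncr1* gave 0.757 for *Fcer1g*, and leaving out the cell with most UMIs at least 0.622 in γδ T cells. The causes were not tested. *Fcgr2b* in CD8 T cells (0 and 3 UMIs) gave no ratio.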

Other observations

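Barcodes outside the classes held a large part of the adaptor UMIs, 29.9% of *Fcer1g* in WT and 27.3% in twi. Of these, 67 WT and 17 twi barcodes with both neutrophil and phagocyte markers held 709 and 254 *Fcer1g* UMIs, and 434 of their 472 monocyte-marker UMIs in WT, and 130 of 152 in twi, were *Ly6c2*, which granulocytes also express. At least 3 *Fcer1g* UMIs were seen in 66 of the WT and 16 of the twi barcodes. Barcodes that received no lineage flag, 38 in WT and 50 in twi, held 100 and 661 monocyte-marker UMIs in all. Monocyte UMIs did not flag a cell with a *Cd3* UMI, so the twi set includes barcodes with 4 or more of them. These 38 and 50 barcodes held 68 and 380 *Fcer1g* UMIs and 64 and 439 *Tyrobp* UMIs. They carried 646.7 and 912 hemoglobin UMIs each on average, and 4 of the WT and 20 of the twi barcodes had at least 3 *Fcer1g* UMIs.

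Monocyte-marker UMIs, most of which T and NK cells can also make (*Ly6c2*, *Ccr2*), were 2.99 per WT and 9.16 per twi cell in CD8 T cells, 5.96 and 11.7 in T cells with NK receptors and 2.04 and 2.50 in NK cells. Neutrophil-marker UMIs were 5.64 and 1.83, 5.26 and 2.06, and 3.65 and 1.39 in the same order. Their part in the adaptor levels of these classes was not tested.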
